A study of Mus musculus with 8 samples.

Results

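The 76 genes described here encode the proteins of the cytosolic ribosome. They were chosen by symbol from 21887 protein-coding genes of the mouse gene table: symbols made of Rpl or Rps, digits and optionally a or x, together with Rplp0, Rplp1, Rplp2 and Rpsa. The large subunit is represented by 46 of them and the small subunit by 30. Rps3a1 and Fau also encode ribosomal proteins but fall outside that symbol rule, and their values are given separately.

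The study used chromatin immunoprecipitation with sequencing to map H3K27ac, the acetylation of histone H3 at lysine 27 that marks active promoters and enhancers, with the abcam antibody ab4729. In the dDAVP group, cells received 0.1 nM dDAVP, an analogue of vasopressin selective for the V2 receptor, for 24 h. The vehicle group received the vehicle alone for the same 24 h. Each group has 2 samples, 1 from each of 2 numbered experiments, and each sample has its own input library. All samples, inputs included, come from 1 cell line, mpkCCD clone 11, a mouse line derived from the cortical collecting duct, at passages 6 to 10. In both groups the cells had grown to confluence on permeable supports in a complete medium that contained insulin, dexamethasone, triiodothyronine and epidermal growth factor, and had then been kept for 24 h without serum or hormones. The question the design puts is which regions differ in H3K27ac after vasopressin signalling through the V2 receptor. The labels do not say that the 2 experiments are separate cultures beyond their number, so the spread between them may be partly technical.

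A ribosome is built from a large and a small subunit, each made of ribosomal RNA and many proteins in about equal copy number. The genes for these proteins are short, lie scattered over the genome and are transcribed at high rates in growing cells. Their mRNAs begin with a C followed by a run of pyrimidines, the 5′ terminal oligopyrimidine (TOP) tract, through which the kinase mTORC1 and the RNA-binding protein LARP1 control their translation. Many of the genes carry small nucleolar RNAs, which guide the modification of ribosomal RNA, inside their introns. Mammalian genomes also hold many processed pseudogenes, inserted copies of these mRNAs without a promoter of their own.

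Promoter sequences of 300 bases, 250 before the annotated start and 50 from it on, were found for 56 of the 76 genes in the RefSeq table of GRCm38.p6, the assembly also called mm10. Because several starts can be annotated for a gene, these 56 genes had 66 starts. The 70 bases around the start of 6 genes with long runs are printed because such a run can be the DNA counterpart of the TOP tract. In them the annotated start is base 41, and capitals mark the longest run of C and T that touches the 20 bases either side of it. A run marked in this way can lie wholly before or after the annotated start, so it need not be a TOP tract.
Rpl7a, chr2:26910767-26910836, plus strand: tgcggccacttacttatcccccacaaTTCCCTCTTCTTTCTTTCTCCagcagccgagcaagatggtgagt
Rpl27a, chr7:109519155-109519224, plus strand: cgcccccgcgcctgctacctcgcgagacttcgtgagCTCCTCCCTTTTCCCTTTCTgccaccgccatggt
Rpl34, chr3:130730308-130730377, minus strand: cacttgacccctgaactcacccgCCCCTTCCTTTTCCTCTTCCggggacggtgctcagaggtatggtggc
Rpl11, chr4:136053364-136053433, minus strand: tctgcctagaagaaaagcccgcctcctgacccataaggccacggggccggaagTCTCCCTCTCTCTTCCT
Rpl15, chr14:18270957-18271026, minus strand: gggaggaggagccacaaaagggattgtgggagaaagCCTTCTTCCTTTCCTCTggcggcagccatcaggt
Rpl13a, chr7:45128716-45128785, minus strand: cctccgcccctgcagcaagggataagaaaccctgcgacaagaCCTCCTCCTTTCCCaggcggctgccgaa

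The run was 21 bases long in Rpl7a, 20 in Rpl27a and Rpl34, 17 in Rpl11 and Rpl15, and 14 in Rpl13a. Over the 56 genes its median was 9 bases, against 5 over the 17492 protein-coding genes with a promoter entry. A run of at least 10 bases was present in 25 of the 56 ribosomal protein genes (44.6%), against 12.1% of all genes. The first transcribed base was a C at 20 of the 66 starts (30.3%), against 13.8% of all starts. Annotated starts can lie some bases away from the start that cells use, so these shares are descriptions of the annotation. GC content hardly set the genes apart, with a median of 57.0% against 56.3%, but their promoters held a median of 21.5 CpG dinucleotides against 13.0.

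The 4 members on the X chromosome are shown next because 3 of them had the lowest pileup of the family by the mean log2 over the 4 lists. Their runs, measured only near the annotated start, are 4 to 9 bases long, at or below the family's median. In Rpl39 and Rpl10 the run lies wholly before that start. The whole promoter of Rpl36a, printed below, holds a longer stretch of C and T further downstream, outside the bases searched.
Rpl39, chrX:37085193-37085262, minus strand: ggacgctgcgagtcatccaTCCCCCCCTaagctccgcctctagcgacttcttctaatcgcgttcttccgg
Rpl10, chrX:74270776-74270845, plus strand: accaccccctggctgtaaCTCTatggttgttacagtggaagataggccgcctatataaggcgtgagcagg
Rps4x, chrX:102189362-102189431, minus strand: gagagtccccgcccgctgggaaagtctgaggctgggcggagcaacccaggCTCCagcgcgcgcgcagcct
Rpl36a, chrX:134585614-134585683, plus strand: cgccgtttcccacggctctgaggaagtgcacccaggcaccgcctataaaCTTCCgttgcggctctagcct

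Of 8 motifs searched on both strands of the 300 bases, CCGGAA, the core bound by ETS-family factors such as GABP, showed the widest gap in percentage points: 31 of 56 ribosomal protein genes had it (55.4%), against 20.9% of all genes. GGGCGG, the GC box, was in 34 (60.7%) against 49.2%. AAGATGGC, a YY1 core, and TGACGTCA, the cyclic AMP response element, were in 5 genes each (8.93%), against 3.57% and 2.54%. CACGTG, the E box, was in 6 (10.7%) against 8.91%, and GCATGCGC, the NRF1 core, in 3 (5.36%) against 3.94%. CCAAT was less common than over all genes, with 18 genes (32.1%) against 42.3%, as was TATAAA, with 6 (10.7%) against 14.8%. No motif contains another of the 8, and a match is only a string of letters, not a bound site.

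The whole promoters of 4 genes follow: the member with the highest mean log2 pileup over the lists among those with an entry (Rpl19), the one with the lowest (Rpl36a), the one with the most matches to CCGGAA (Rps18) and one of those with the next most (Rpl37). Base 251 is the annotated start, and capitals mark CCGGAA on either strand and the longest run of C and T near the start. In Rpl19 and Rpl37 the marked run ends before the start. Both also hold a longer stretch of C and T further downstream, outside the bases searched.
Rpl19, chr11:98026674-98026973, plus strand: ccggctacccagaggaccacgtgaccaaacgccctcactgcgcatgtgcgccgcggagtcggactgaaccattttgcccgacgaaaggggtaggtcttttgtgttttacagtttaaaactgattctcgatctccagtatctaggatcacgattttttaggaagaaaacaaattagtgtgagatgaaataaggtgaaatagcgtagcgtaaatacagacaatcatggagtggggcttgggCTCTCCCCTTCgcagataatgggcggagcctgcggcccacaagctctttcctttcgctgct
Rpl36a, chrX:134585404-134585703, plus strand: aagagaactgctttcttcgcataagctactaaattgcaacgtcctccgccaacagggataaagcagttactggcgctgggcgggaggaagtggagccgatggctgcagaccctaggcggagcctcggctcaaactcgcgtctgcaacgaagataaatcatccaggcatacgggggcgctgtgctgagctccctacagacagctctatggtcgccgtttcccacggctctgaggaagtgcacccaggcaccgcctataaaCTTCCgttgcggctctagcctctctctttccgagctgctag
Rps18, chr17:33955616-33955915, minus strand: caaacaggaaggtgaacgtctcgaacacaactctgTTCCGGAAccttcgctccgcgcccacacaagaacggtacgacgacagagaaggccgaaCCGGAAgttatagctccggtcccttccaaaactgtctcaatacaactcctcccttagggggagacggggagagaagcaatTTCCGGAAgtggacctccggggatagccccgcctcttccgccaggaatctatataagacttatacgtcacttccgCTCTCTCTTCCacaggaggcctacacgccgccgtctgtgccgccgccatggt
Rpl37, chr15:5116363-5116662, plus strand: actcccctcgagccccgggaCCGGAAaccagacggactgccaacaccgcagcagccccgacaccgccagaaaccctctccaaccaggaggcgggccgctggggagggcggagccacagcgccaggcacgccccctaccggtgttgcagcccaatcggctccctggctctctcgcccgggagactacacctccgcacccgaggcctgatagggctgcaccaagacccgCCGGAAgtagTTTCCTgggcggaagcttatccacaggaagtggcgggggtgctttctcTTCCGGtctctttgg

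Rps18 had 5 matches, counting both strands of the palindromic pairs, and Rpl37 had 3. Neither Rpl19 nor Rpl36a had any. Pileup is a peak's coverage in fragments per 10000000 tags, given as 1 value for the whole region, with no summit. Members with the motif did not have the higher median in any list. In the 31 genes with CCGGAA, median pileup was 13.6 and 11.8 with dDAVP and 13.6 and 14.1 with vehicle (experiments 1 and 2 in each). In the 25 without, it was 14.7 and 12.6 with dDAVP and 14.2 and 15.0 with vehicle.

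**Figure D1:**
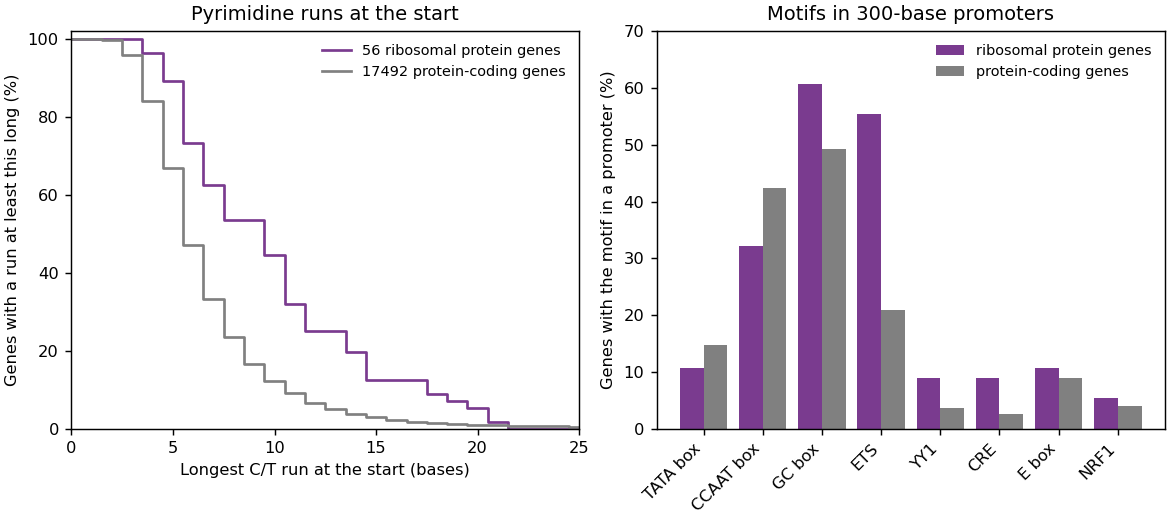
Left, percentage of genes (vertical axis) whose longest C/T run at an annotated start is at least as long as the horizontal axis says, in bases; right, percentage of genes with each motif in a 300-base promoter. Purple is the 56 ribosomal protein genes with a promoter entry and grey all 17492 genes; runs of at least 10 bases are in 44.6% and 12.1%, and the ETS core CCGGAA in 55.4% and 20.9%.

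H3K27ac was called as broad peaks, separately in each library against its own input. The 4 libraries kept between 27923780 and 32705755 tags after duplicates were removed, and the lists held 37235 and 20124 peaks with dDAVP and 39745 and 29597 with vehicle in experiments 1 and 2. Together the peaks covered 99.0 and 33.5 Mb with dDAVP and 104 and 56.9 Mb with vehicle, so the shorter lists of experiment 2 also had narrower peaks, and the second dDAVP list was the shortest. Of 10 genes listed for the principal cell and collecting duct, 10 had a peak in every list, against 51.1% of all protein-coding genes. Among them were Aqp2, Aqp3 and Avpr2, and also the general epithelial genes Krt8, Krt18, Cdh1 and Epcam. Of 4 intercalated cell markers none had a peak in all 4 lists, and Foxi1 and Atp6v1g3 had none in any. Lrp2 and Cubn of 4 proximal tubule markers, Slc12a3 of 4 thick limb and distal tubule markers, and Pecam1 of 3 leukocyte and endothelial markers were called in all 4, while neither of the 2 fibroblast markers was.

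Every ribosomal protein gene carried H3K27ac in every list. A gene counts as called when a peak overlaps its span plus 1 kb on each side. With that rule 76 of 76 members were called in all 4 lists, against 51.1% of all protein-coding genes, and 76 of 76 in each list alone, against 59.3% and 51.3% of all genes in the dDAVP lists and 60.1% and 57.0% in the vehicle lists. Ribosomal protein genes are short, with a median length of 3169.5 bp against 17169 bp and so offer a shorter target to any peak. Among the 8797 genes no longer than the longest member, Rps15a at 11774 bp, 36.1% were called in all 4 lists. With a stricter peak threshold, a −log10 q of at least 5, 74 of the 76 remained called in all 4 lists, against 40.4% of all genes.

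The peaks at these genes were high in pileup rather than wide. Median pileup was 14.3 and 12.1 fragments per 10000000 tags with dDAVP and 14.2 and 14.9 with vehicle, against 10.4 and 8.30 with dDAVP and 10.4 and 9.62 with vehicle over all called genes. Ranked among the 11184 genes called in all 4 lists, the median member stood at percentile 78.3 and 81.4 with dDAVP and 78.6 and 79.7 with vehicle. The median width of a member's widest peak was 3448 and 1647 bp with dDAVP and 3422 and 1946 bp with vehicle, close to the middle of the same genes, at percentile 53.9 and 57.4 with dDAVP and 53.3 and 50.7 with vehicle. By the authors' own fold enrichment, the median member's highest peak lay at percentile 95.2 and 91.9 of its dDAVP list and 95.7 and 94.6 of its vehicle list. Measured in the same way, the median of all called genes lay at 84.6 and 72.7 with dDAVP and 85.1 and 79.3 with vehicle. A single peak covered most members, between 65 and 69 of the 76 by list.

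**Figure D2:**
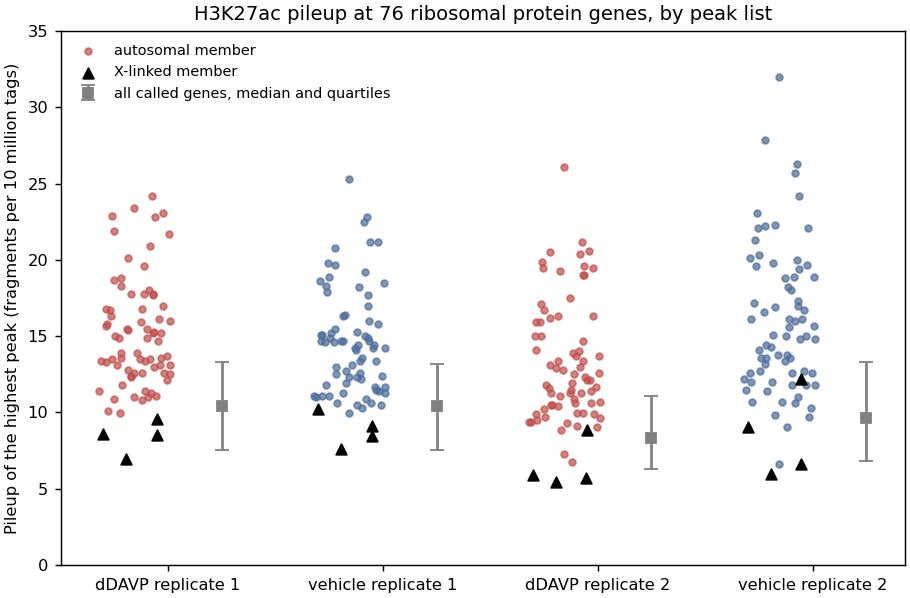
Pileup of the highest peak at each of the 76 ribosomal protein genes (vertical axis, fragments per 10000000 tags) in the 4 peak lists (horizontal axis); points are autosomal members, black triangles the 4 X-linked members, and grey squares with bars the median and quartiles of all called protein-coding genes. In each list most members lie above the grey median and the X-linked members lie in its lower part, with Rpl10 at 12.2 in the second vehicle list the highest of them.

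The order of the members was similar from list to list for pileup and less so for width. Across the 76 genes, Spearman's rho between lists was 0.76 to 0.90 for pileup and 0.36 to 0.75 for width, as a description over genes that share libraries and a caller. For comparison, the same over all genes called in all 4 lists was 0.77 to 0.93 for pileup and 0.73 to 0.91 for width.

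Around the start, the peaks reached further into the gene than upstream of it. In the dDAVP lists 62 and 61 of the 66 annotated starts lay inside a peak (93.9% and 92.4%, against 50.0% and 39.2% of all 21263 starts), and in the vehicle lists 64 and 63 (97.0% and 95.5%, against 50.8% and 46.4%). From the start the median peak ran 2310 and 1025 bp downstream and 990 and 635 bp upstream with dDAVP, and 2257 and 1164 bp downstream and 1065 and 765 bp upstream with vehicle. Over all genes the peaks were closer to symmetric: 1437 and 783 bp downstream and 1099 and 688 bp upstream with dDAVP, and 1420 and 913 bp downstream and 1097 and 790 bp upstream with vehicle. The longer arm pointed downstream at 88.7% and 75.4% of the members' covered starts with dDAVP and 79.7% and 84.1% with vehicle, against 64.9% and 57.8% of all genes' with dDAVP and 65.0% and 60.1% with vehicle. Since median members are only 3169.5 bp long, a peak of this width in experiment 1 spans much of the transcribed gene.

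**Figure D3:**
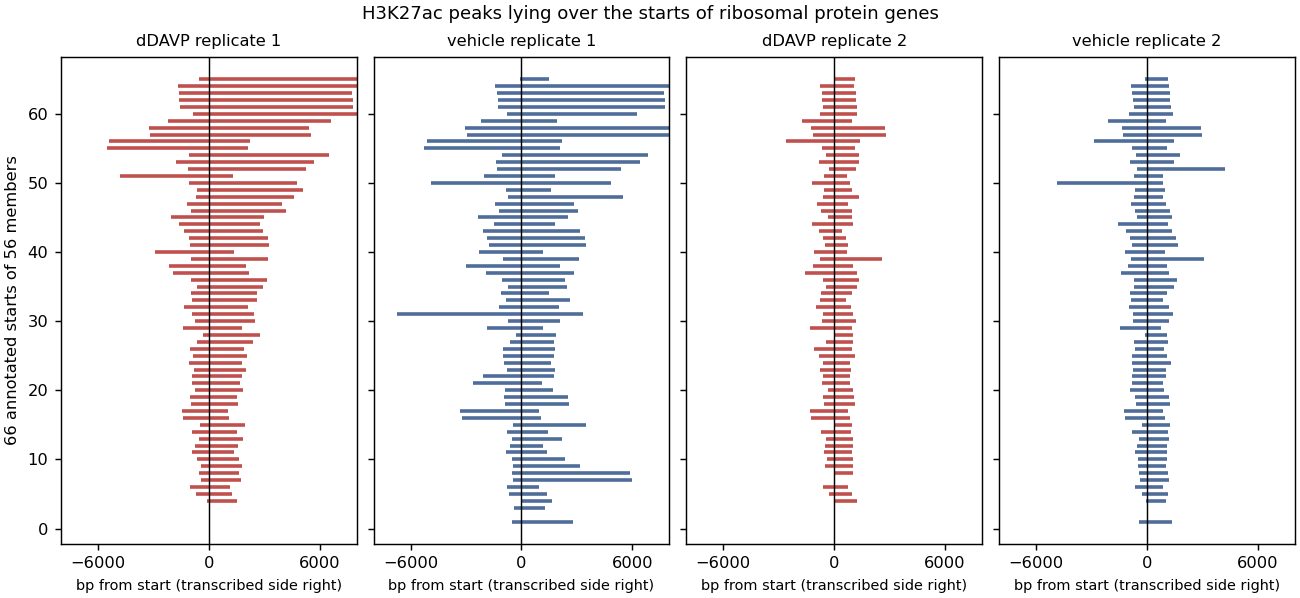
Extent of the peak lying over each of the 66 annotated starts (rows, in the same order in each panel, sorted by width in the first dDAVP list) in base pairs from the start, with the transcribed side to the right; 1 panel per list, red for dDAVP and blue for vehicle. Bars reach further right than left in every panel and are shorter in experiment 2; bars past 8000 bp, at 3 starts in each list of experiment 1, are cut at the edge, and an empty row means that no peak covers that start.

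In 53 of the 56 genes with a promoter entry a start lay inside a peak in all 4 lists. The exceptions were Rpl27, Rps4x and Rpl38, whose starts were covered in 2, 1 and 0 lists. At Rpl38 the peak began 139 and 158 bp downstream of the annotated start with dDAVP and 125 and 22 bp downstream with vehicle. At Rps4x it began 52 and 140 bp downstream with dDAVP, while with vehicle it covered the start in experiment 1 and began 79 bp downstream in experiment 2. At Rpl27 the peak covered the start in both vehicle lists and began 14 and 105 bp downstream with dDAVP. All these gaps are shorter than the fragments used to build the signal, which were 255 and 215 bp with dDAVP and 241 and 210 bp with vehicle.

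Large-subunit genes had slightly higher pileup than small-subunit genes in every list. Median pileup was 15.2 and 12.7 with dDAVP and 14.7 and 15.8 with vehicle over the 46 large-subunit genes, and 13.6 and 11.5 with dDAVP and 12.4 and 13.7 with vehicle over the 30 small-subunit genes. The interquartile ranges overlapped in all 4 lists, at 12.7 to 17.8 against 12.0 to 16.1 in the first dDAVP list.

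By the mean log2 pileup over the 4 lists, the highest peak was at Rpl19, a protein of the bridges between the subunits, with its gene at chr11:98022003-98030493 in mm10. Its pileup was 23.4 and 26.1 with dDAVP and 25.3 and 32.0 with vehicle, and no other protein-coding gene met its widest peak. Rpl4, which lines the tunnel through which the new chain leaves, had 24.2 and 21.2 with dDAVP and 22.8 and 26.3 with vehicle. Rps27a, made as a fusion to ubiquitin, had 23.1 and 19.5 with dDAVP and 21.2 and 22.1 with vehicle, and Rpl21, a large-subunit protein, 20.9 and 20.4 with dDAVP and 19.2 and 25.7 with vehicle. The widest peak met 1 other coding gene at Rpl4 and 1 or 2 at Rps27a in every list, and none at Rpl21. All 4 genes were above percentile 96 of the 11184 genes in every list, and at each of them the dDAVP and vehicle values overlapped.

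By the same mean, the lowest peaks were at Rpl36a, Rpl39 and Rps4x on the X chromosome and at Rps21 on chromosome 2. Rpl36a, which lies near the site where spent tRNA leaves, had 6.95 and 5.44 with dDAVP and 7.63 and 5.95 with vehicle. Rpl39, a very small protein of the exit tunnel, had 8.50 and 5.70 with dDAVP and 9.14 and 6.64 with vehicle. Rps21, a small-subunit protein, had 11.0 and 7.30 with dDAVP and 9.95 and 6.60 with vehicle. The fourth X-linked member, Rpl10, which completes the large subunit late in its assembly, had 9.55 and 8.86 with dDAVP and 8.45 and 12.2 with vehicle.

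Low pileup was shared by the X-linked members and by X-linked genes in general. The 4 X-linked members had a median pileup of 8.55 and 5.81 with dDAVP and 8.79 and 7.83 with vehicle, and the 72 autosomal members 14.9 and 12.4 with dDAVP and 14.4 and 15.0 with vehicle. Over all X-linked genes called in all 4 lists, 233 in number, the median was 6.82 and 5.65 with dDAVP and 6.83 and 6.77 with vehicle, and over all such autosomal genes 11.1 and 8.39 with dDAVP and 11.2 and 10.4 with vehicle. The median of the X-linked members thus stood above that of the X chromosome and below that of the autosomes in each list. The number of X chromosomes in these cells is not given in the sources used here, and its part in the result was not tested.

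Of the 4 members with the widest peaks by the mean log2 width over the lists, Rpl23a and Rpl10a shared theirs with other coding genes in most lists. At Rpl23a (chr11:78180935-78183584), which sits at the exit of the peptide tunnel and binds factors that meet the new chain, the widest peak measured 29485 and 1439 bp with dDAVP and 28261 and 17853 bp with vehicle. That peak met the windows of 4 other protein-coding genes in both lists of experiment 1 and of 3 in the vehicle list of experiment 2, but of none in the second dDAVP list. In experiment 2 its log2 ratio of dDAVP over vehicle was −3.63 in width and −0.50 in pileup, with pileups of 10.6 and 15.0. In the second vehicle list the region of Rpl23a was called as 2 peaks and in the other lists as 1. Width is that of the widest peak and pileup that of the highest, so the values compared need not be of the same region. Rpl10a, the protein of the mobile L1 stalk, had 8711 and 3997 bp with dDAVP and 27913 and 4277 bp with vehicle, again with 2 or 3 other genes under the peak. Rpl13, a large-subunit protein, had 7659 and 4024 bp with dDAVP and 7280 and 4324 bp with vehicle, with 1 other coding gene under the peak in both lists of experiment 1. Rpl3, which reaches towards the catalytic centre, had 12790 and 2955 bp with dDAVP and 6335 and 3209 bp with vehicle, with no other coding gene under it.

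Among the narrowest peaks were those at Rps4x (1713 and 764 bp with dDAVP, 1640 and 895 bp with vehicle), Rpl5 (1646 and 1273 bp with dDAVP, 1667 and 1103 bp with vehicle) and Rps20 (2322 and 938 bp with dDAVP, 1739 and 1393 bp with vehicle). None of these 3 peaks met another coding gene. A narrow peak did not always have a low pileup: Rpl5 had 21.7 and 12.6 with dDAVP and 18.5 and 18.9 with vehicle. Over the 42 members whose widest peak met no other coding gene in any list the median width was 2808 and 1541 bp with dDAVP and 2954 and 1818 bp with vehicle, and over the other 34 it was 5515 and 1804 bp with dDAVP and 5008 and 2147 bp with vehicle.

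The stalk proteins Rplp0, Rplp1 and Rplp2, which recruit the elongation factors, lie on 3 chromosomes (5, 9 and 7). Rplp0 (chr5:115559467-115563729) had a pileup of 9.94 and 13.1 with dDAVP and 15.5 and 13.2 with vehicle. Its ratio in experiment 1, a log2 difference of −0.64, was the lowest of all 76 members, while in experiment 2 it was −0.02. In the first dDAVP list Rplp0 was called as 1 peak of 16299 bp. In the first vehicle list it was called as 2 peaks, the widest 12183 bp, so the 2 pileups are not of the same region. Its widest peak met 1 other coding gene in both lists of experiment 1. Rplp1 had 15.2 and 9.97 with dDAVP and 14.9 and 11.0 with vehicle, and Rplp2 12.1 and 9.06 with dDAVP and 12.4 and 12.6 with vehicle.

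The other members with well-known roles lay between the family's extremes, with Rps19 in its lower part. Rpl11, which with Rpl5 and 5S ribosomal RNA binds and inhibits Mdm2, had a pileup of 12.4 and 11.1 with dDAVP and 12.7 and 16.9 with vehicle. Rps19, the gene most often mutated in human Diamond-Blackfan anaemia, had 11.8 and 10.5 with dDAVP and 10.6 and 11.4 with vehicle. Rps6, the substrate of the S6 kinases, had 12.8 and 10.4 with dDAVP and 14.7 and 12.0 with vehicle. In Rpl11 and Rps6 the dDAVP value was the lower in both experiments, with log2 ratios of −0.04 and −0.61 at Rpl11 and −0.20 and −0.21 at Rps6. Rpsa, also known as the laminin receptor, had 13.1 and 12.1 with dDAVP and 11.7 and 12.7 with vehicle. Rpl13a, which outside the ribosome also takes part in silencing mRNAs in myeloid cells, had 12.6 and 12.8 with dDAVP and 12.3 and 13.8 with vehicle.

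Small nucleolar RNAs lie inside 29 of the members, and these hosts did not stand apart. Their median pileup was 13.7 and 12.1 with dDAVP and 13.4 and 14.3 with vehicle, against 14.9 and 12.1 with dDAVP and 14.2 and 15.6 with vehicle in the 47 members without one.

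Between dDAVP and vehicle, the family's ratios lay close to those of all genes and differed between the experiments. In experiment 1 the median log2 ratio of dDAVP over vehicle was 0.06 for pileup, against 0.00 over all 11184 genes, and in experiment 2 it was −0.28, against −0.30. Pileup was higher with dDAVP in experiment 1 at 52 of 76 members (68.4%, against 49.4% of all genes) and lower in experiment 2 at 70 (92.1%, against 90.9%). It was lower in both experiments at 24 members (31.6%, against 46.6% of all genes) and higher in both at 6 (7.89%, against 5.05%). These counts depend on the scaling: with pileup divided by the genome-wide background instead of by tags, 35 members were higher in experiment 1 (46.1%, against 29.7% of all genes), and 40 were lower in both experiments (52.6%, against 65.9%). Pileup per tag was higher in experiment 1 and lower in experiment 2 at 46 members, and pileup over the background at 30, and the lower values in experiment 2 were shared by most other genes. The second dDAVP list also had the fewest and narrowest peaks of the 4, and its part in the result was not tested.

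Width showed the same picture with a small shift between members and other genes. Median log2 ratios were 0.06 in experiment 1 and −0.19 in experiment 2, against −0.01 and −0.36 over all genes. Peaks were wider with dDAVP in experiment 1 at 48 members (63.2%, against 48.0%) and narrower in experiment 2 at 64 (84.2%, against 91.8%). They were narrower in both at 21 members (27.6%, against 48.3%). Relative to the median of all genes the members' median was higher by 0.08 and 0.17 in width and by 0.07 and 0.01 in pileup. These are descriptions over genes and carry no test, since members of 1 library are not replicates.

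**Figure D4:**
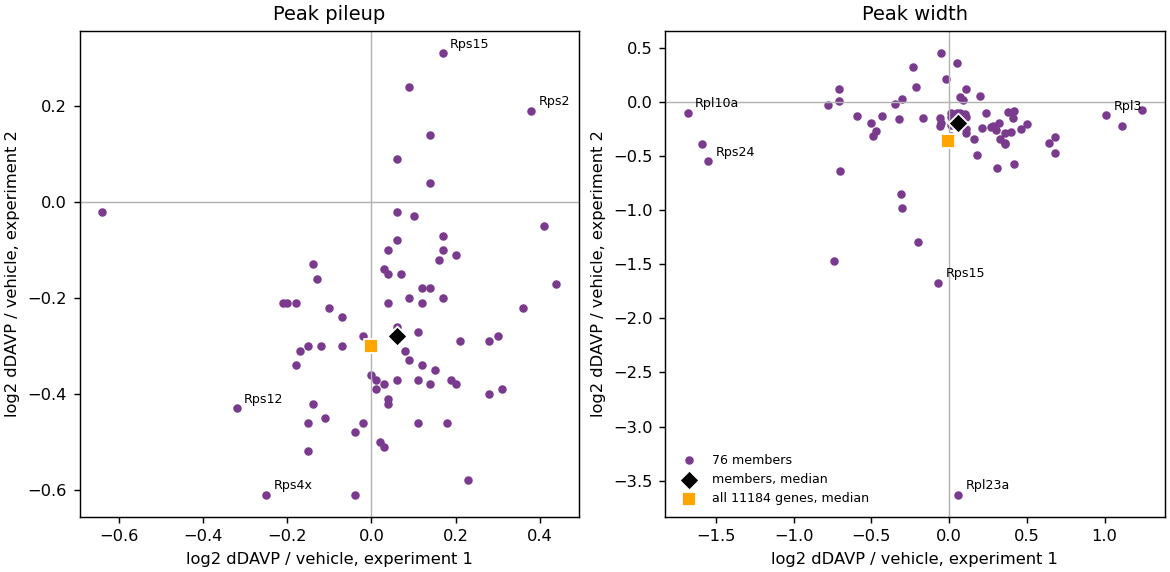
Log2 ratio of dDAVP over vehicle in experiment 1 (horizontal axis) and experiment 2 (vertical axis) for peak pileup (left) and peak width (right) at the 76 ribosomal protein genes (purple points), with the median of the members (black diamond) and of all 11184 genes called in all 4 lists (orange square). Most points lie below 0 on the vertical axis and on both sides of 0 on the horizontal axis, and the 2 medians lie close together.

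No ribosomal protein gene passed the test of the treatment. limma, fitted to log2 values of all 11184 genes called in all 4 lists with Benjamini-Hochberg adjustment, called 1 gene for pileup (0.00894%), Apool, which is no member, and 0 genes for width (0%). The lowest adjusted p of a member in that limma fit was 0.999 for pileup and 1.000 for width. At an unadjusted p under 0.05 limma gave 45 genes for pileup, none of them a member, and 42 for width, among them Rpl23a. With the experiment as a replicate block, limma called 9 genes for pileup, none a member, and 0 for width, and the lowest adjusted p of a member was 0.840 for pileup and 0.907 for width. With 2 samples a group the standard error of a member's log2 pileup difference was 0.313, or 0.197 within experiments, and that of a log2 width difference was 0.904, or a median of 0.291 within experiments. An exact permutation test of a single gene could not go below p = 0.33, or 0.5 in pairs. When the first dDAVP list was left out, Rpl23a was called for width (limma adjusted p = 0.00576), from the single remaining dDAVP list, in which its peak is 1439 bp wide.

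The 2 dDAVP lists both lay below the 2 vehicle lists in pileup at 16 of 76 members, against 20.3% of all genes, and both above at 2 members, Rps3 and Rps2, against 1.42%. Among the 16 were Rpl7, Rpl31, Rps27, Rps20, Rpl11, Rplp0, Rplp2, Rpl13, Rps12, Rpl38, Rps7, Rpl3, Rps10, Rpl36 and Rps4x. For width there was none in either direction, against 5.70% of all genes lower and 0.143% higher. The members' shares in pileup were near those of all genes.

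Rps2 and Rps3, which line the channel where mRNA enters, were the members whose dDAVP values were above both vehicle values. Rps2 (chr17:24718121-24721927) had 13.7 and 11.7 with dDAVP, a mean of 12.7 ± 1.39 (SD, n = 2), and 10.5 and 10.3 with vehicle, a mean of 10.4 ± 0.160. Its log2 difference was 0.29 ± 0.313 (SE), with an adjusted p of 0.999 by limma. Its peak was at the same time narrower with dDAVP, at 5867 and 2067 bp against 9773 and 5722 bp with vehicle, the largest narrowing present in both experiments. Pileup is 1 value for the whole region, so it and width are not independent measures. In the first dDAVP list the region of Rps2 was called as 2 peaks and in the other lists as 1. Its widest peak met 2 other coding genes in experiment 1 and 1 in experiment 2. Rps3 had 11.3 in both dDAVP lists and 10.9 and 10.6 with vehicle. Rps15, which acts in the maturation of the small subunit, had 16.1 and 20.6 with dDAVP and 14.4 and 16.7 with vehicle, so that the groups overlapped. Rpl12, at the base of the stalk, had 15.7 and 14.1 with dDAVP and 14.7 and 12.0 with vehicle. Rps21, given above, was the third of those with the largest positive ratio in both experiments, and Rpl12 the fourth.

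In the other direction, Rps12 (chr10:23785183-23787383), a protein of the small subunit's head, had a pileup of 18.0 and 14.0 with dDAVP, a mean of 16.0 ± 2.83, and 22.5 and 18.9 with vehicle, a mean of 20.7 ± 2.48 (SD, n = 2 each). The log2 difference was −0.38 ± 0.313 (SE), and the limma adjusted p 0.999. Its peak was wider with dDAVP in experiment 1, at 8806 bp against 4071 bp, and narrower in experiment 2, at 2688 bp against 3120 bp. Rps4x had a pileup of 8.59 and 5.92 with dDAVP and 10.2 and 9.02 with vehicle, and its log2 difference was −0.43 ± 0.313 (SE), with a limma adjusted p of 0.999. In limma with the replicate block the SE of that difference was 0.197, the unadjusted p 0.0292 and the adjusted p 0.840. Rpl31, at the rim of the tunnel exit, had 13.1 and 11.8 with dDAVP and 15.2 and 13.6 with vehicle. In all 3 genes both dDAVP values were below both vehicle values, and none passed the test. Rps6, given above, was the fourth member by this ranking.

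Changes of width in the same direction in both experiments were small upwards and larger downwards. Rpl32 measured 3540 and 1668 bp with dDAVP and 3273 and 1538 bp with vehicle, and Rpl14 2942 and 2045 bp with dDAVP and 2833 and 1598 bp with vehicle. Both encode large-subunit proteins. Rpl10 measured 3179 and 2280 bp with dDAVP and 3030 and 2199 bp with vehicle. Rps24, a small-subunit protein mutated in some patients with Diamond-Blackfan anaemia, measured 2181 and 1064 bp with dDAVP and 6397 and 1560 bp with vehicle. In the first dDAVP list the region of Rps24 was called as 3 peaks and in the other lists as 1. Rpl6 measured 2454 and 982 bp with dDAVP and 3990 and 1525 bp with vehicle, and Rpl35, near the tunnel exit, 3345 and 1625 bp with dDAVP and 10080 and 2133 bp with vehicle. The peak of 10080 bp at Rpl35 met the windows of 2 other coding genes, and its widest peaks in the other lists met none.

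Genes that work with the ribosomal proteins were called nearly as often. Rps3a1 and Fau, outside the symbol rule, were called in all 4 lists. Rps3a1 had a pileup of 17.8 and 15.7 with dDAVP and 16.8 and 18.5 with vehicle. Fau, which fuses a small-subunit protein to a ubiquitin-like one, had 20.4 and 15.9 with dDAVP and 17.0 and 18.5 with vehicle. Rps3a1 and Fau thus lay in the range of the members. Mrpl49, a mitochondrial ribosomal protein gene on the same chromosome as Fau, had the same pileup as Fau in every list. Its widths in experiment 1 were also the same, so the value is not particular to Fau. Of 78 genes for the proteins of the mitochondrial ribosome, 76 (97.4%) were called in all 4 lists; Mrps22 and Mrps24 lacked a peak in the second dDAVP list. Median width of the mitochondrial genes was 1992 and 1098 bp with dDAVP and 2195 and 1319 bp with vehicle, below that of the cytosolic genes in each list. Median pileup was 13.0 and 8.70 with dDAVP and 12.6 and 10.9 with vehicle, also lower in each list, by a small margin in experiment 1.

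Paralogues differed more. Rpl10l and Rpl39l, which in mouse are expressed chiefly in male germ cells, lacked a peak in every list. The other 5 paralogues found, Rpl3l, Rpl22l1, Rpl7l1, Rpl36al and Rps27l, were called in all 4. Rpl3l, a paralogue expressed in striated muscle, had the lowest pileup of these 5, at 7.44 and 6.30 with dDAVP and 7.26 and 6.84 with vehicle, and Rpl22l1 had 19.8 and 13.0 with dDAVP and 16.6 and 16.0 with vehicle.

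The machinery that makes ribosomes was called as well. In all 4 lists peaks were present at 25 of 26 ribosome biogenesis genes, 10 of 11 genes of RNA polymerase I and its factors, 9 of 9 of the 5S and polymerase III list, 13 of 14 chaperones and import factors of ribosomal proteins, 13 of 13 genes of mTOR and LARP1 control, and 14 of 14 factors known at ribosomal protein promoters. Dkc1, Polr1e and Tsr2 each lacked a peak in the second dDAVP list. Ncl, the nucleolar protein nucleolin, had 21.3 and 18.2 with dDAVP and 21.6 and 22.4 with vehicle, and Fbl, the nucleolar methyltransferase fibrillarin, 9.50 and 8.54 with dDAVP and 9.22 and 12.8 with vehicle. Gabpa, the DNA-binding part of the ETS factor GABP, had 21.0 and 18.3 with dDAVP and 22.1 and 22.6 with vehicle.

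Translation factors were the list most like the ribosomal proteins in pileup. All 31 elongation and initiation factors were called in all 4 lists, with a median pileup of 14.7 and 12.3 with dDAVP and 14.7 and 14.6 with vehicle. Eef1a1, the elongation factor that brings tRNA to the ribosome, had 16.1 and 18.4 with dDAVP and 14.7 and 22.7 with vehicle. Of 9 other genes whose mRNAs start with a pyrimidine tract, 8 were called, among them Tpt1 with 14.3 and 16.8 with dDAVP and 11.9 and 23.4 with vehicle, while Vim, the intermediate filament of mesenchymal cells, had no peak in any list. In every one of these lists the median log2 pileup ratio was between −0.03 and 0.11 in experiment 1 and between −0.45 and −0.18 in experiment 2, so the pattern across experiments was shared.

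**Figure D5:**
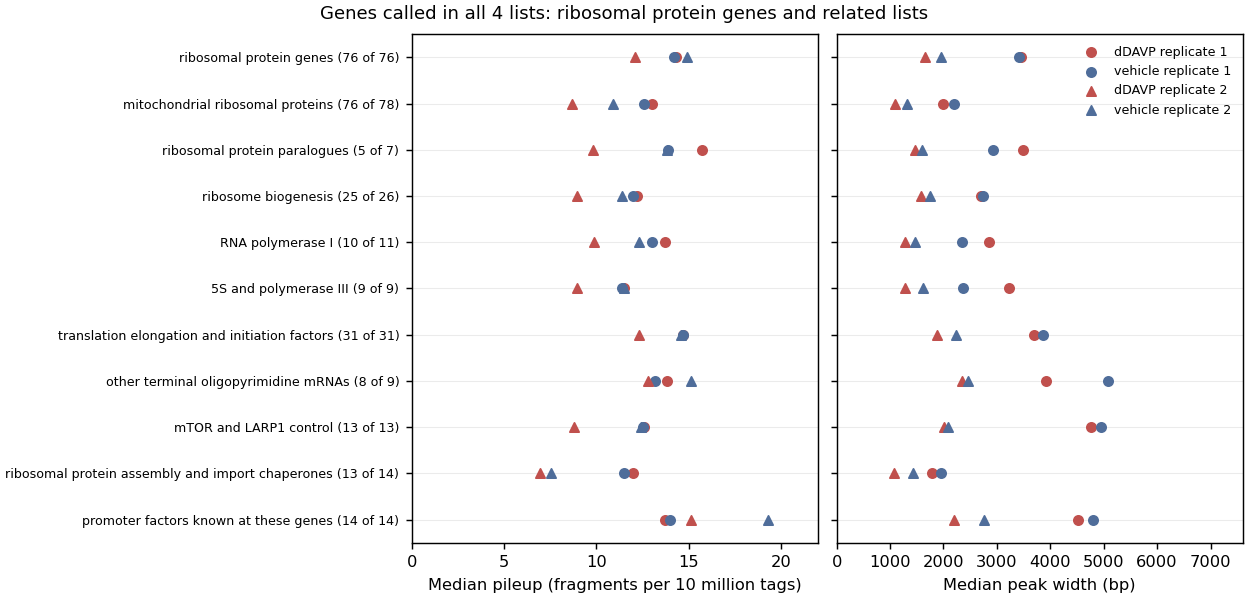
Median pileup in fragments per 10000000 tags (left) and median peak width in bp (right) of the ribosomal protein genes and of 10 related lists (rows, with the number called in all 4 lists of the number found); red is dDAVP and blue vehicle, circles experiment 1 and triangles experiment 2. Ribosomal protein genes and translation factors have like pileups, and mitochondrial ribosomal protein genes have narrower peaks in every list.

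Processed pseudogenes of the ribosomal proteins, which copy the exons but not the promoters, mostly lacked acetylation. Of 302 in the gene table, 26 and 12 had a peak in the dDAVP lists (8.61% and 3.97%) and 27 and 23 in the vehicle lists (8.94% and 7.62%), and 12 (3.97%) had one in all 4. Of the 222 that lie away from any coding gene's window, 8 (3.60%) were called in all 4 lists. Among these 8, Rpl30-ps6 on chromosome 1 had the highest pileup in 3 lists and the second highest in the first dDAVP list, with 9.64 and 8.85 with dDAVP and 11.7 and 11.6 with vehicle; it is singled out after its values were seen. Median pileup of the called pseudogenes was 6.35 and 4.99 with dDAVP and 7.02 and 5.10 with vehicle, below the median member in each list. Reads from an exon can match both a gene and its copies, and how such reads were treated is not given in the sources used here.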

How the data were processed

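H3K27ac ChIP-seq and input libraries of mpkCCD cells were sequenced, and 4 peak lists, 1 for each immunoprecipitated library against its own input, were deposited. Per the submitters' processing notes BWA, SAMtools and MACS2 were used with mm10; per the file headers the caller was MACS 2.1.1.20160309 in broad mode, with q cutoffs of 0.01 and 0.1 and 1 tag kept per position. Per the file headers each peak has a pileup signal (coverage in fragments, at the depth of the smaller of the 2 libraries), a fold enrichment ratio over the local background, −log10 p and −log10 q values, and a length in bp. Each value stands for the whole region, since the broad lists give no summit. How reads with several matches were treated is not given in the sources used here.

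Samples were grouped by treatment from their titles, whose experiment numbers pair dDAVP with vehicle. The lists carry the input records, and the names of the peaks in experiment 2 say experiment 3; the treatment named is the same in both. The deposited pileup was divided by the tags the caller scaled to, per 10000000. Between 27923780 and 32705755 such tags per list limit the precision; values of 1 list have no error of their own. A protein-coding gene (RefSeq, GRCm38.p6) was called when a peak met its span plus 1 kb by at least 1 bp; its width is that of its widest peak and its pileup that of its highest.

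limma 3.58.1 in R 4.3.3 was fitted to log2 values of the 11184 genes called in all 4 lists. It was tested on simulated data and shrank gene variances almost wholly to a common value, so standard errors hardly differ between genes; the width fit with the replicate block is the exception, with members' standard errors up to 0.892. Python 3.11.15, numpy 2.4.6, pandas 2.3.3, scipy 1.17.1 and matplotlib 3.10.9 were used. Genes named with values are the 4 widest, narrowest, highest and lowest members, the 4 with the largest change of one sign in both experiments in pileup and width (by the ratio nearer 0), members past adjusted p of 0.05, Rplp0, Rplp1, Rplp2, Rpsa, Rps6, Rps27a, Rpl5, Rpl11, Rps19, Rps4x, Rpl10 and Rpl13a, and up to 4 genes of each related list; genes absent from a list or singled out otherwise were chosen after their values were seen. The members and all lists were chosen with earlier results of these data known. Alternatives were a stricter −log10 q, other flanks and overlaps, lists cut to equal length, other scalings, the replicate block and leaving out each list. The inputs themselves were not analysed here. Values of a few genes are not reported here.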

Additional observations from a re-analysis of the deposited data

Results flagged for a closer look

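The treatment difference of the ribosomal protein genes had opposite signs in the 2 experiments. The median log2 ratio of dDAVP over vehicle was 0.06 in experiment 1 and −0.28 in experiment 2 for pileup, and 0.06 and −0.19 for width. The opposite signs depend on the scaling. With pileup over the genome-wide background the medians were −0.02 and −0.32, and relative to the median of all genes they were 0.07 and 0.01 for pileup and 0.08 and 0.17 for width. With 1 list per treatment in each experiment the difference between the experiments was not tested. All genes called in all 4 lists had medians of 0.00 and −0.30 for pileup and −0.01 and −0.36 for width, and the second dDAVP list was the shortest of the 4, with 20124 peaks.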

How the results depend on the processing

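All 76 members stayed called in all 4 lists with no flank, a 5 kb flank, lists cut to the same 20124 peaks, or any 1 list left out; 75 did when 50% of the gene or of the peak had to overlap, and 74 at the stricter q value threshold, a −log10 of 5. Without scaling, the members' median pileup was 39.9 and 37.2 with dDAVP and 46.5 and 46.6 with vehicle; over the genome-wide background, an alternative chosen after seeing the data, it was 10.5 and 10.5 with dDAVP and 11.0 and 13.3 with vehicle. On that scale the median log2 pileup ratio was −0.02 in experiment 1 and −0.32 in experiment 2. The mean over experiments of the median log2 ratio, −0.11 for pileup and −0.06 for width, turned positive once centred on all genes (0.04 and 0.12; for width added after seeing the data), and by experiment ranged from −0.28 to 0.06 for pileup and from −0.19 to 0.06 for width. For pileup, limma called 1 gene; it called 0 at that stricter threshold, with lists of equal length and after quantile normalization, 2 with no flank, 9 in the paired fit with the experiment as replicate block, and 0 to 7 with 1 list left out; none of these was a member. For width it called 0 genes, also with the replicate block, and 0 to 67 with 1 list left out, the 67 without dDAVP replicate 1 including Rpl23a. A group left with 1 list was assumed to vary like the other. The block changed no call of a member.

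The members' values rest on 2 lists per treatment, and a list's length sets how many weak genes it calls. Depth differed little, but the fragment length differed more between experiments than within them, so pileup levels are better set side by side within an experiment. Such comparisons are not free of it either. The fragment length was 255 bp with dDAVP and 241 bp with vehicle in experiment 1, and 215 and 210 bp in experiment 2. The genome-wide background takes in the fragment length, and pileup per tag does not. A gene's peak can reach over its neighbours, as for 34 members. Values exist only for called peaks.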
